A study of Mus musculus with 16 samples.

Results

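The constitutive proteasome was followed at the RNA level through 32 genes, chosen by name: the 14 subunits of the 20S core, 17 subunits of the 19S cap and Psme4, which encodes the separate activator PA200. All 32 were measured, among 15175 tested features with a gene symbol and 25189 tested features in all. They were read by 43 probes, and each of the 43 was well above background on all 16 arrays.

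Quadriceps muscle came from wild-type mice (WT) and from mice lacking Klf15 (KO), a zinc-finger transcription factor gene. Dexamethasone, a glucocorticoid drug, was injected intraperitoneally in 1 dose of 2 mg/kg, control animals of each genotype received vehicle, and the samples used here are labelled 8 h. There were 4 animals in each of the 4 groups (WT vehicle, WT dexamethasone, KO vehicle, KO dexamethasone) and 1 one-colour array per animal. The labels give no strain, no age and no account of how, or in which cells, Klf15 was disrupted.

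The 26S proteasome is the ATP-dependent protease that breaks down proteins tagged with ubiquitin. Its core is a barrel of stacked rings in which outer alpha rings control entry and inner beta rings carry the protease sites. The cap binds the ubiquitin chain, removes it, unfolds the substrate with a ring of ATPases and threads it into the core. In skeletal muscle this system degrades contractile proteins during fasting, disuse and glucocorticoid excess, and the ubiquitin ligases Trim63 (MuRF1) and Fbxo32 (atrogin-1) are its best known muscle-specific partners.

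Precision is set by the 4 arrays of each group. Levels are log2 intensities relative to the array's own 75th percentile, so a level of 2 lies 2 doublings above that percentile; levels of different genes come from different probes and are not compared. Arrays had 66.3% to 80.6% of spots well above background, and arrays of a group correlated at 0.933 to 0.990 across features. The Klf15 probe stood at 3.29 ± 0.40 (SD, n = 4) in WT vehicle and -0.68 ± 0.50 (SD, n = 4) in KO vehicle, with no overlap. Under dexamethasone it stood at 4.30 ± 0.36 in WT and 0.51 ± 0.19 in KO, a rise of 1.01 and 1.19 (limma adjusted p = 0.024 and 0.0094). The WT call was lost in 8 of the other settings run, among them normexp, slide as a fixed block and 4 of the 16 fits without 1 array. The KO call was lost with normexp. Features called higher in WT went from 1272 to 117 with normexp and 375 with slide as a fixed block. In KO they went from 1433 to 250 with normexp. The 8 skeletal muscle markers were well above background on all 16 arrays. A set of 4 arrays (those of slide 7, which held WT vehicle replicate 3, KO vehicle replicate 1 and KO dexamethasone replicate 2, and WT dexamethasone replicate 1) lay apart on the first principal component. Neutrophil markers were high on 2 arrays: the list's median deviation from its average over arrays was 7.11 on replicate 3 of the treated WT group and 5.72 on replicate 1 of the treated KO group, against -2.02 to 0.98 elsewhere. The erythroid list, of which 4 genes were tested, was highest on the same arrays, at 1.83 and 1.44, against -0.95 to 0.44 elsewhere. Replicate 3 of the treated WT group was also the 1 array scanned on a different day from all others.

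Dexamethasone moved the transcripts of the constitutive proteasome little. Averaged over both genotypes, 2 of the 32 passed the test, both higher: Psmb2, a beta-ring subunit without protease activity of its own, rose 1.20-fold (95% interval 1.08 to 1.33), and Psmc2, an ATPase of the cap base, rose 1.16-fold (1.06 to 1.28). In the same comparison 17.2% of all tested features passed in either direction and 9.04% passed as higher. Within WT none of the 32 passed, against 10.7% of all features, and within KO none passed, against 10.2%. At an unadjusted p under 0.05 the same limma test gave 3 members in WT and 3 in KO, all higher. Over all features 24.2% in WT and 21.2% in KO passed at that level, and 10.6% and 11.6% passed as higher. The members' 3 of 32 lay near the share passing as higher and below the share passing in either direction.

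The signs of the small differences ran mostly one way on the scale used. Dexamethasone minus vehicle was above 0 in 28 of 32 members in WT, 28 of 32 in KO and 29 of 32 averaged, with a median of 0.10, 0.10 and 0.11 log2 units. Over all features 41.7%, 60.0% and 47.6% were above 0. The median over all features was -0.08, 0.08 and -0.02, and over the 19037 features well above background on all arrays -0.02, 0.06 and 0.01, so the members' median lay above both in WT and close to them in KO. These sizes and signs followed the scaling: with quantile normalization the KO median of the members was -0.01, with the deposited log2 values the averaged median was -0.0013, and median scaling gave 0.34 in WT and 0.03 in KO. The WT and KO comparisons share no animal, and the genotype comparisons use the same 16 arrays again.

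**Figure D1:**
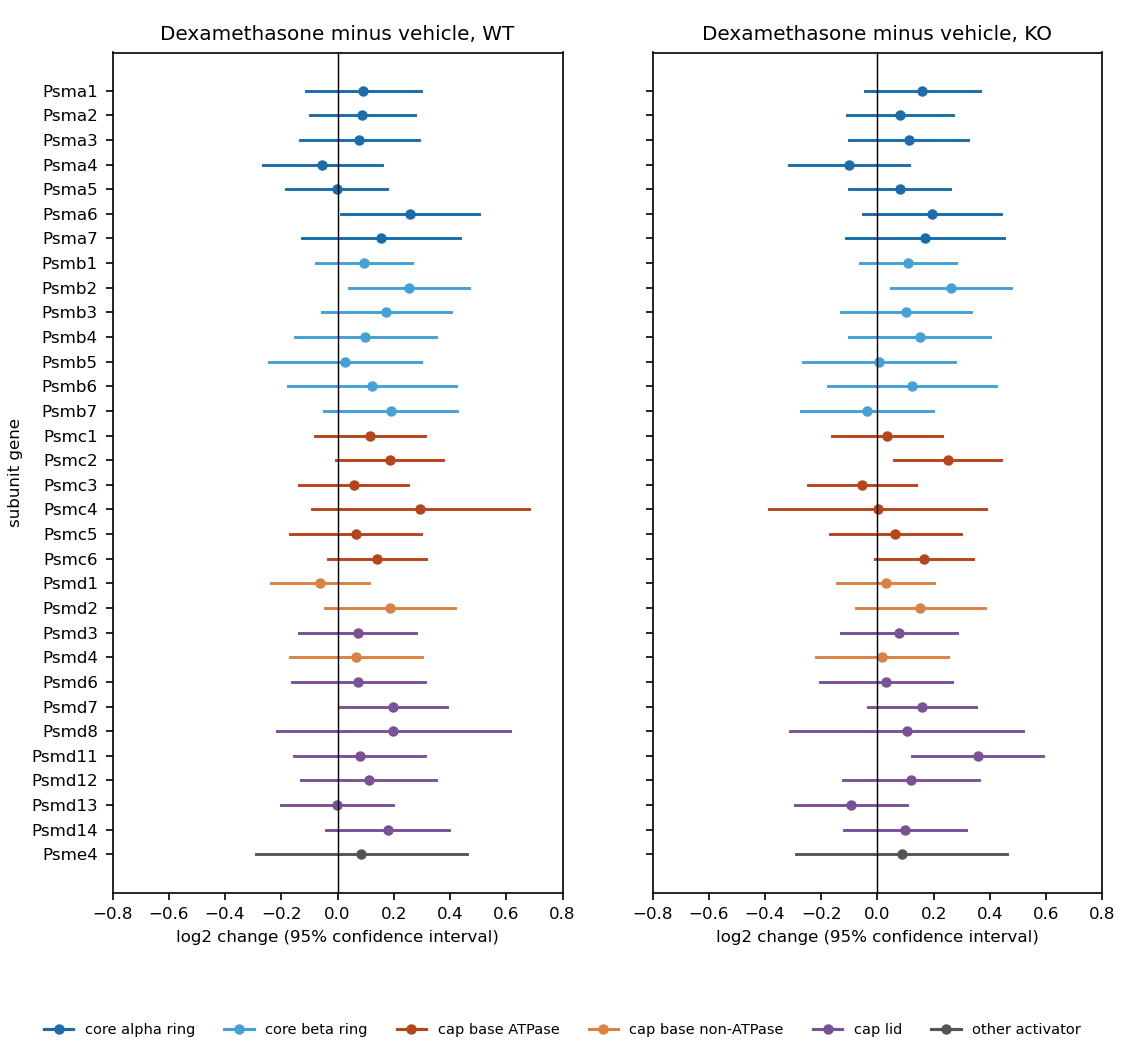
Log2 change (dexamethasone minus vehicle) of each of the 32 members in WT and in KO, with 95% intervals from the limma fit, grouped by place in the complex. Most points lie within 0.3 log2 units to the right of 0, and most intervals cross 0; Psmb2 has a like value in both genotypes, while Psmd11 reads 0.08 in WT and 0.36 in KO.

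Among the 7 alpha-ring subunits, which form the gated outer rings of the core, averaged log2 changes ran from -0.08 (Psma4) to 0.23 (Psma6) with a median of 0.09, and none passed. Psma6 stood at 4.63, 4.96, 5.11 and 4.91 in WT vehicle and at 5.24, 5.21, 5.25 and 4.95 in WT dexamethasone. In KO it stood at 5.01, 4.84, 4.68 and 4.89 under vehicle and at 4.99, 5.14, 4.93 and 5.12 under dexamethasone. The treated arrays were mostly the higher ones, and the groups overlapped in both genotypes. Its averaged change was 0.23 ± 0.08 (SE; limma adjusted p = 0.074).

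The 7 beta-ring subunits include the 3 with protease sites, Psmb6 (caspase-like), Psmb7 (trypsin-like) and Psmb5 (chymotrypsin-like). Their averaged log2 changes were 0.12, 0.08 and 0.02, and none of the 3 passed; the 95% interval for Psmb5 ran from -0.17 to 0.21. The beta ring as a whole had a median of 0.12, with all 7 above 0 and Psmb2 highest.

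Psmb2 stood at 1.92, 1.93, 2.16 and 1.95 in WT vehicle and at 2.22, 2.12, 2.36 and 2.27 in WT dexamethasone. In KO vehicle it stood at 2.01, 2.04, 1.89 and 1.77, and in KO dexamethasone at 2.00, 2.14, 2.27 and 2.34. In WT 1 vehicle array (replicate 3) lay above the lowest treated array; in KO 1 treated array (replicate 1) lay below 2 of the vehicle arrays. The change was 0.26 ± 0.10 (SE) in each genotype and 0.26 ± 0.07 averaged, the one value of Psmb2 that passed (limma adjusted p = 0.020; WT 0.13, KO 0.13).

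The base of the cap holds 6 ATPases, which unfold substrates, and the scaffold and ubiquitin-binding subunits Psmd1, Psmd2 and Psmd4. All 6 ATPases were above 0 in the average, with a median of 0.11, and 1 passed, Psmc2. Its levels were 5.31, 5.34, 5.52 and 5.52 in WT vehicle and 5.43, 5.73, 5.66 and 5.60 in WT dexamethasone. In KO they were 5.26, 5.37, 5.25 and 5.24 under vehicle and 5.40, 5.51, 5.62 and 5.60 under dexamethasone. Every treated KO array lay above every vehicle KO array, whereas in WT replicate 1 of the treated group lay among the vehicle arrays. Psmc2 changed by 0.22 ± 0.06 averaged (SE; limma adjusted p = 0.027), from 0.19 in WT (adjusted p = 0.22) and 0.25 in KO (adjusted p = 0.099).

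Psmc6, another ATPase of the same ring, stood at 5.01, 5.19, 5.33 and 5.12 in WT vehicle and at 5.30, 5.20, 5.39 and 5.32 in WT dexamethasone, which overlapped. In KO it stood at 5.09, 5.12, 5.04 and 5.09 under vehicle and at 5.14, 5.30, 5.24 and 5.31 under dexamethasone, all treated arrays being higher. Its averaged change, 0.15 ± 0.06 (SE), did not pass (limma adjusted p = 0.089). The ATPase Psmc4 had the highest upper bound of any member in WT, at 0.29 with a 95% interval of -0.09 to 0.68; in KO it read 0.0011.

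**Figure D2:**
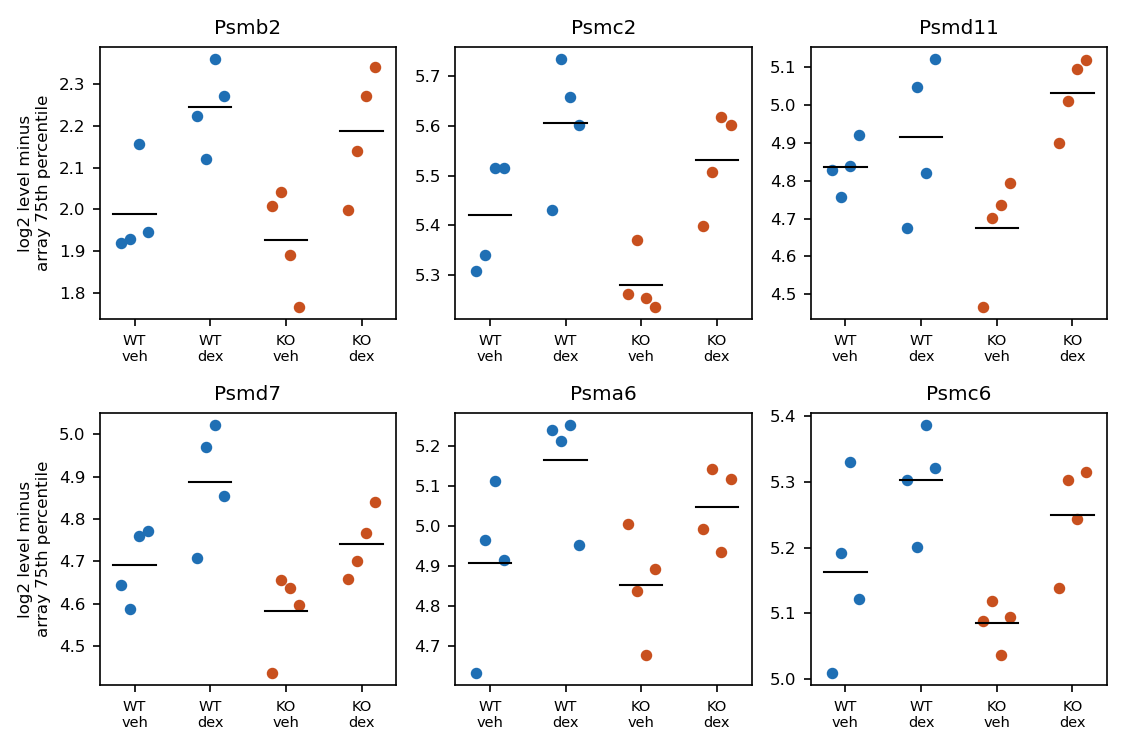
Level of the 6 members with the smallest averaged p, as log2 intensity relative to the array's 75th percentile, for each of 4 arrays in 4 groups (points), with group means (lines) and a separate vertical range per gene. Psmb2 moves from means of 1.99 to 2.24 in WT and from 1.93 to 2.19 in KO, with points of the groups overlapping; in KO the points of Psmc2, Psmc6, Psmd7 and Psmd11 do not overlap.

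The 8 lid subunits, which include the deubiquitinase Psmd14 and its inactive partner Psmd7, had averaged changes from -0.05 (Psmd13) to 0.22 (Psmd11) and a median of 0.13; none passed. Psmd14 itself read 0.14. Psmd7 stood at 4.64, 4.59, 4.76 and 4.77 in WT vehicle and at 4.71, 4.97, 5.02 and 4.85 in WT dexamethasone. In KO it stood at 4.44, 4.66, 4.64 and 4.60 under vehicle and at 4.66, 4.70, 4.77 and 4.84 under dexamethasone. The highest vehicle and lowest treated KO arrays both read 4.66, a hair apart, and the WT groups overlapped, with an averaged change of 0.18 ± 0.06 (SE; limma adjusted p = 0.071).

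Psmd11, a scaffold subunit of the lid, had the largest change of any member within a genotype. Its KO levels were 4.47, 4.70, 4.74 and 4.79 under vehicle and 4.90, 5.01, 5.10 and 5.12 under dexamethasone, without overlap. Its WT levels were 4.83, 4.76, 4.84 and 4.92 under vehicle and 4.67, 5.05, 4.82 and 5.12 under dexamethasone, so the treated WT arrays spanned the whole vehicle range. The change was 0.36 ± 0.11 (SE) in KO, just outside the threshold (limma adjusted p = 0.053), and 0.08 ± 0.11 in WT. The difference between these responses was 0.28 with a 95% interval of -0.05 to 0.61, which did not pass.

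A total of 5 members, Psmb1, Psmc2, Psmc6, Psmd7 and Psmd11, had KO groups that did not overlap, all with the treated arrays higher; 9.16% of all features did so in that direction. In WT no member had separate groups, against 7.71% of features higher and 9.32% lower. The members varied less than most features: their residual SD around the group means had a median of 0.132 (0.086 to 0.276), against 0.217 for features well above background on all arrays.

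The calls of Psmb2 and Psmc2 depended on the setting, and that of Psmc2 on single arrays. Neither passed with median scaling, quantile normalization, normexp background correction, the deposited log2 values or slide as a fixed block. Features called in the averaged comparison went from 2278 higher and 2060 lower to 572 and 389 with normexp. They were 1582 and 1468 with slide as a fixed block and 2030 and 1063 with median scaling. Quantile normalization gave 2076 and 1948, and the deposited values 2067 and 1919. Psmb2 passed in all 16 fits that left out 1 array. Psmc2 did not pass, leaving 1 call, without WT vehicle replicate 1 (adjusted p = 0.057) or 2 (0.062), KO vehicle replicate 3 (0.052), WT dexamethasone replicate 3 (0.051) or KO dexamethasone replicate 3 (0.060) or 4 (0.056); without WT vehicle replicate 3 or WT dexamethasone replicate 1 the count was 4. Within slides, treated minus vehicle was above 0 for both genes wherever it could be taken: 0.17 for Psmb2 and 0.22 for Psmc2 on the 1 WT slide, and 0.13 to 0.45 and 0.16 to 0.35 on the 3 KO slides. The median of all features was -0.04 on the WT slide and 0.04 to 0.12 on the KO slides. Without the 2 arrays high in neutrophil markers both passed, at 0.27 and 0.23.

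For the 9 genes with more than 1 probe, the 11 other probes had the sign of the brightest in 9 cases averaged and in WT, and in 8 in KO. The probes of Psme4 disagreed. Psme4 encodes a cap-independent activator that binds the end of the core. Its brightest probe read 0.09 ± 0.17 (SE) in WT, while a second read 0.31 and the third -0.52 ± 0.14, the last past the threshold when every probe was fitted (limma adjusted p = 0.028). In KO the same 3 probes read 0.09, -0.06 and 0.19. Which transcripts of Psme4 each probe reads was not tested, and no direction is given for the gene.

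Core against cap was compared array by array. On each array the median deviation of the 14 core genes and of the 17 cap genes from their own averages over arrays was taken. The core median was -0.16, -0.03, 0.09 and -0.02 in WT vehicle and 0.06, 0.05, 0.16 and 0.04 in WT dexamethasone. In KO it was -0.05, -0.04, -0.12 and -0.07 under vehicle and -0.05, 0.06, 0.06 and 0.03 under dexamethasone. WT vehicle replicate 3 stood among the treated arrays and KO dexamethasone replicate 1 among the vehicle arrays.

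The cap median lay near the core median on most arrays, less so in WT dexamethasone. It was -0.15, -0.07, 0.06 and 0.05 in WT vehicle, 0.02, 0.23, 0.15 and 0.10 in WT dexamethasone, -0.02, -0.05, -0.13 and -0.11 in KO vehicle and -0.07, 0.06, 0.01 and 0.01 in KO dexamethasone. Cap minus core averaged 0.00 ± 0.05 (SD, n = 4) in WT vehicle, 0.05 ± 0.10 in WT dexamethasone, -0.00 ± 0.03 in KO vehicle and -0.02 ± 0.02 in KO dexamethasone. The largest value, 0.18, belonged to WT dexamethasone replicate 2. The spread within WT dexamethasone was larger than any difference between group means. On slides that held both treatments, core and cap changed by 0.10 and 0.12 in WT, and by 0.01 to 0.18 and 0.05 to 0.13 in KO. The median of all features changed by -0.04 on the WT slide and by 0.04 to 0.12 on the KO slides. On slide 4 (KO) the core, at 0.01, lay below all features at 0.05, with the cap also at 0.05. On slide 7 (KO) the cap, at 0.11, lay just below all features at 0.12, with the core at 0.18.

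**Figure D3:**
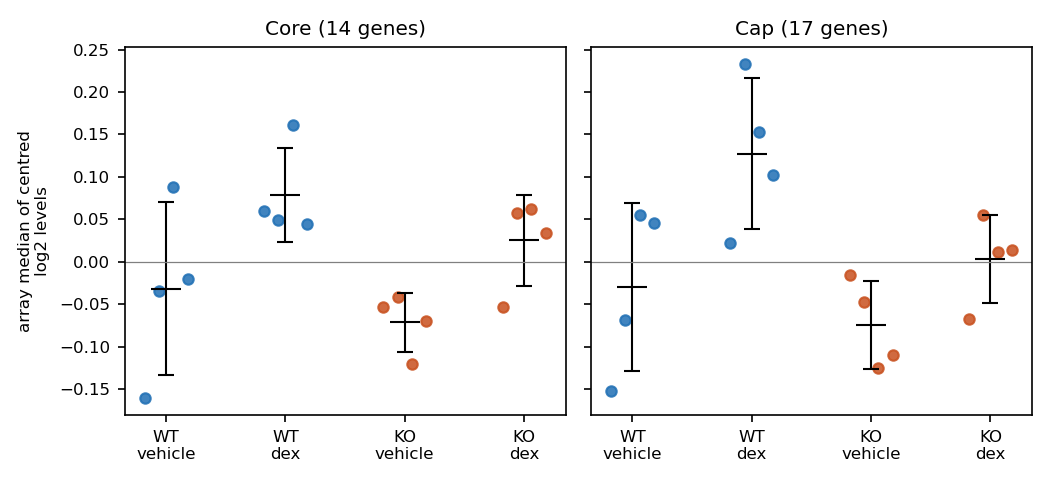
Median deviation of the core genes and of the cap genes on each of 16 arrays (log2 units, each gene centred on its average over arrays), by group, with the mean and SD of 4 arrays. Core and cap lie at like heights on most arrays, and the treated groups overlap the vehicle groups; cap minus core is widest on WT dexamethasone replicate 2.

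Loss of Klf15 was not accompanied by a called change in any member. Under vehicle 0 of 32 passed, where 0.262% of all features did, and under dexamethasone 0 of 32, where 1.84% did. limma gave no member an unadjusted p under 0.05 in either, against 7.11% of all features under vehicle and 13.8% under dexamethasone. KO minus WT was above 0 in 6 of 32 members under vehicle and in 4 of 32 under dexamethasone, against 35.5% and 57.9% of all features. Beside all-feature medians of -0.08 and 0.06, the members' medians were -0.06 under vehicle and -0.08 under dexamethasone. The sign of these medians was not stable: with normexp background correction 31 members under vehicle and 27 under dexamethasone were above 0, and median scaling gave 24 and 0.

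The intervals state what these arrays can say about Klf15 on the scaling used, and they leave out the choice of scaling. Under dexamethasone the members' median was -0.08 on that scaling, -0.28 with median scaling and 0.07 with normexp. Under vehicle the 95% intervals of all members lay between -0.60 (Psme4) and 0.41 (Psmc4), and under dexamethasone between -0.68 (Psmd8) and 0.35 (Psmd11), with a median half-width of 0.22. Psmd8, a lid subunit, and Psmc4 had the lowest point values under dexamethasone, both -0.27. For the difference between the genotypes' responses no member passed, no feature of the whole array passed (0%), and no member had an unadjusted p under 0.05, against 11.5% of features. The intervals there ran from -0.84 (Psmc4) to 0.61 (Psmd11).

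Genes that serve the proteasome were counted from lists, again chosen by name. The immune subunits Psmb8, Psmb9 and Psmb10 replace the catalytic subunits in cells exposed to interferon, and Psme1 and Psme2 form an activator induced with them. Of these 5, 4 fell in WT, 3 in KO and 4 averaged. Among all 25189 features 1422 were called lower in WT, 1146 in KO and 2060 averaged. Psmb8 fell by 1.36 in WT and 1.87 in KO on the log2 scale, Psmb9 by 1.62 and 2.04, and Psmb10 by 0.61 and 0.40, while the 3 constitutive subunits they replace, Psmb5, Psmb6 and Psmb7, differed by 0.03, 0.12 and 0.19 in WT and by 0.01, 0.12 and -0.04 in KO. Psmb8 and Psmb9 are most abundant in immune cells, and the macrophage list, of which 9 genes were measured, had 5 members lower in WT, 1 in KO and 5 averaged. Its median deviation per array was 0.13 to 0.72 in WT vehicle, -0.52 to -0.17 in WT dexamethasone, -0.09 to 0.37 in KO vehicle and -0.55 to 0.37 in KO dexamethasone. The endothelial list had 0 of 8 members lower in WT, 4 in KO and 2 averaged. Its median per array was -0.24 to 0.19 in WT vehicle, -0.15 to 0.00 in WT dexamethasone, 0.20 to 0.35 in KO vehicle and -0.20 to -0.08 in KO dexamethasone. The lymphocyte list, of which 7 genes were tested, overlapped between treated and vehicle groups in both genotypes. Its median per array was 0.04 to 0.83 in WT vehicle, -0.84 to 0.65 in WT dexamethasone, -0.88 to 0.73 in KO vehicle and -0.60 to 0.77 in KO dexamethasone. The calls of Psmb10 in each genotype were lost with median scaling, normexp or slide as a fixed block, and the KO call in 4 settings in all. Those of Psmb8 and Psmb9 were kept in every setting run. With median scaling, normexp and slide as a fixed block, features called lower in WT went from 1422 to 378, 76 and 392. In KO they went from 1146 to 790, 163 and 1189. In bulk tissue, fewer cells of a type and less RNA per cell cannot be told apart. The part of macrophages, lymphocytes and endothelial cells in the immune subunits' fall was not tested.

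Assembly chaperones, which build the core and cap from free subunits, did not pass in any dexamethasone comparison (0 of 8 measured, and 0 of 8 at an unadjusted p under 0.05 in WT, KO or averaged). Pomp, the chaperone of beta-ring assembly, read -0.08 in WT and 0.11 in KO. Of 11 shuttle factors and deubiquitinases none passed, with 3 in WT, 0 in KO and 3 averaged at an unadjusted p under 0.05, all higher; over all features 24.2%, 21.2% and 27.2% passed at that level. None of 5 other cap subunits and activators passed, with 1, 0 and 0 at that level.

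Ubiquitin ligases of muscle mark proteins for the protease. Of 4 measured, 1 rose in WT, 2 in KO and 3 averaged. Among all 25189 features 1272 were called higher in WT, 1433 in KO and 2278 averaged. Trim63 rose by 1.61 ± 0.18 (SE) in WT and 1.67 ± 0.18 in KO, or 3.06-fold and 3.17-fold. Fbxo32 read 1.09 ± 0.36 in WT and 1.08 ± 0.36 in KO, neither past the threshold (limma adjusted p = 0.072 and 0.078). Averaged it read 1.09 ± 0.25, which passed (0.0083). Its KO levels were 3.34 to 3.69 under vehicle and 4.36 to 4.88 under dexamethasone, without overlap, as for 9.16% of all features in that direction. In WT they were 3.79 to 4.32 and 4.15 to 6.55, which overlapped. The fit shares 1 spread among the groups, and WT dexamethasone had the widest (SD 1.00, n = 4). Fbxo30 read 0.24 in WT and rose by 0.32 in KO and 0.28 averaged. Both calls were lost with median scaling or normexp. The KO call was lost in 12 of the other settings run, with 5 of the 16 fits without 1 array among them. Features called higher in KO went from 1433 to 629 with median scaling and 250 with normexp. Averaged, they went from 2278 to 2030 and 572. Asb2 read 0.35 in WT and -0.08 in KO and did not pass. The upper interval bound of no proteasome member exceeded 0.68 in either genotype.

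Of 6 regulators of subunit genes 2 rose in WT, 3 in KO and 3 averaged. The counts called higher among all 25189 features were 1272, 1433 and 2278. Nfe2l1 encodes the factor that raises proteasome genes when the protease is inhibited; it read 0.05 ± 0.13 (SE) in WT and 0.31 ± 0.13 in KO and did not pass (limma adjusted p = 0.84 and 0.17). Nfe2l2, the oxidative stress factor, rose by 0.68 in WT and 0.51 in KO. Foxo1, a driver of atrophy genes, rose by 2.33 and 2.37, and held in every setting run. The calls of Nfe2l2 in both genotypes were lost with normexp and with slide as a fixed block, and the KO call was lost in 3 settings in all. With normexp, features called higher went from 1272 to 117 in WT and from 1433 to 250 in KO. With slide as a fixed block they went to 375 in WT and 1448 in KO. Foxo3, a related factor, read 0.26 in WT and rose by 0.96 in KO and 0.61 averaged. Its averaged call was lost in 15 of the other settings run. Its KO call was lost in 13, among them quantile normalization, normexp, the deposited values, slide as a fixed block and 6 of the 16 fits without 1 array. Keap1, the inhibitor of Nfe2l2, was higher by 0.45 ± 0.10 (SE) in KO than in WT under dexamethasone (limma adjusted p = 0.045). This call was lost in 21 of the other settings run, among them median scaling, normexp, the deposited values, slide as a fixed block and 12 of the 16 fits without 1 array. Features called higher in that comparison went from 257 to 22 with median scaling and 4 with normexp. They went to 148 with the deposited values and 7 with slide as a fixed block. Fkbp5, a direct glucocorticoid receptor target, rose by 2.98 and 2.75.

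**Figure D4:**
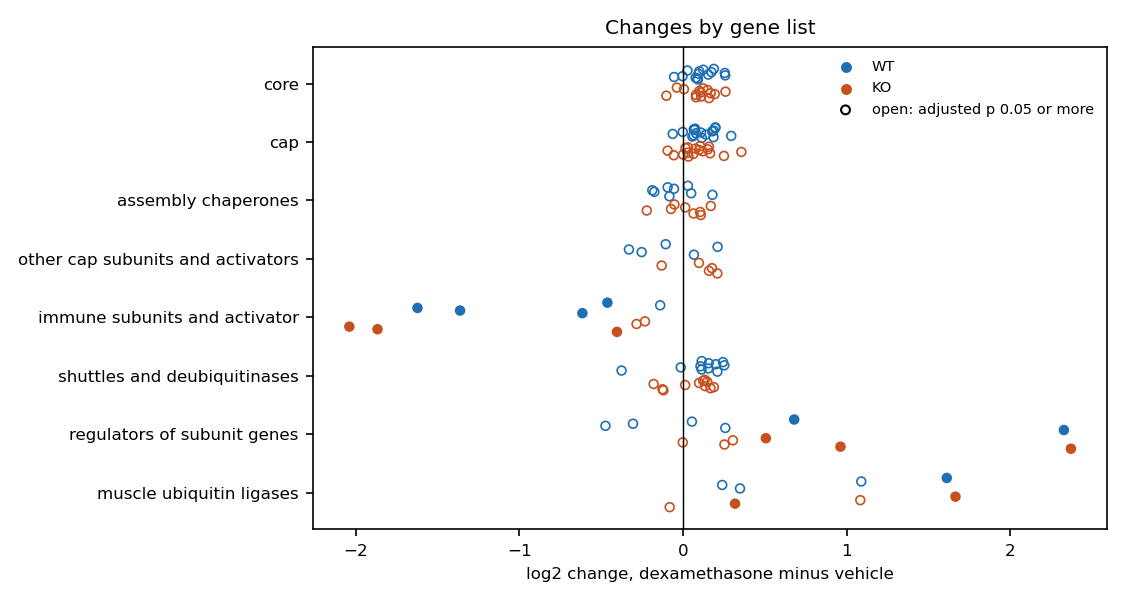
Log2 change with dexamethasone in WT and KO for the genes of 8 proteasome-related lists, one point per gene and genotype, filled where the limma adjusted p was under 0.05 and open elsewhere. The core and cap genes sit close to 0, the immune subunits reach down to -1.62 in WT and -2.04 in KO (Psmb9), and Trim63, Fbxo32 and Foxo1 lie above 1.

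The start regions of the members are shown because several cap genes share a short stretch of letters. RefSeq windows (GRCm38.p6, 250 bases before to 50 after each start) were on hand for 26 of the 32 members, as 28 windows, by symbol; Psmb1, Psmb2, Psmb7, Psmc3, Psmd3 and Psmd7 had none. A total of 8 motifs were searched on both strands. CCGGAAG, the core of a binding site of ETS-family factors, was in windows of 11 of the 26 genes, of which 9 were among the 14 cap genes with a window, 1 (Psma6) was among the 11 core genes, and 1 was Psme4. It was in 42.9% of member windows and 8.86% of all 32851 windows.

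The 250 bases before the start follow for the members with an unadjusted p under 0.05 in the averaged comparison that have a window and whose matches all lie wholly before the start, which leaves out Psma6, and for Psmc1, an ATPase of the same ring as Psmc2 that also holds the letters and changed by 0.07. All are on the plus strand of GRCm38.p6, 5′ to 3′, and capitals mark CCGGAAG or its reverse complement CTTCCGG. Psmc2 has 2 annotated starts, at chr5:21785025-21785274 and chr5:21786497-21786746. Psmd11 is at chr11:80428365-80428614, Psmc6 at chr14:45329574-45329823, Psmd2 at chr16:20651402-20651651 and Psmc1 at chr12:100109952-100110201.
Psmc2 upstream start: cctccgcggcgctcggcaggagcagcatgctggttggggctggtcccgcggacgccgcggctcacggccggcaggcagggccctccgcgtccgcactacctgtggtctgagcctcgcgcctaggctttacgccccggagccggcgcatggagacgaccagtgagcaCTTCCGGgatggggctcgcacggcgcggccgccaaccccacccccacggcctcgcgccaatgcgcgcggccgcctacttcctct
Psmc2 downstream start: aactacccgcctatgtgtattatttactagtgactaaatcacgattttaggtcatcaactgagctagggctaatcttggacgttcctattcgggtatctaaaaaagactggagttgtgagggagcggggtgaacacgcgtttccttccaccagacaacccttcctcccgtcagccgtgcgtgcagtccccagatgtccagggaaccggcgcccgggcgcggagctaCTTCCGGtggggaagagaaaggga
Psmd11: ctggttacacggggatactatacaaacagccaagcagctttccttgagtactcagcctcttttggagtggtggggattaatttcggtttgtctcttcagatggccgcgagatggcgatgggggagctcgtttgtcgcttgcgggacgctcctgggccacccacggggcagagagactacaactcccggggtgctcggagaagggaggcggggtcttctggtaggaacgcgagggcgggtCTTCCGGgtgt
Psmc6: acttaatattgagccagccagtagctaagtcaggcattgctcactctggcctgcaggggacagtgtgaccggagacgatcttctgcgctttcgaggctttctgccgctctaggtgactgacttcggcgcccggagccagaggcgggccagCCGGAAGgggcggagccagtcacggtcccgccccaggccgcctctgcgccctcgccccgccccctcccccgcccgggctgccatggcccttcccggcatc
Psmd2: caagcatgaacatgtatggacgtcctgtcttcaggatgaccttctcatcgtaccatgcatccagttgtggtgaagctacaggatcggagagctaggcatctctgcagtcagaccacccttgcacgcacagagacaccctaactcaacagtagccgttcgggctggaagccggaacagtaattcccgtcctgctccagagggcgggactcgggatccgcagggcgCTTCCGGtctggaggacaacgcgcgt
Psmc1: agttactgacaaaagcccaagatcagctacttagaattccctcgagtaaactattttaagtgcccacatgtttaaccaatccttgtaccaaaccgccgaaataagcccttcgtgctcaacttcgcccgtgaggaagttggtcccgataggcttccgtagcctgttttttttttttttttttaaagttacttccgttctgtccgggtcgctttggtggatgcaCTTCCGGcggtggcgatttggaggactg

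In Psmc2 the letters begin 84 bases before the upstream start and 24 bases before the downstream one. They begin 11 bases before the start in Psmd11, 100 in Psmc6, 26 in Psmd2 and 28 in Psmc1. Psma6 holds 3 copies in 1 of its 2 windows, of which only 1 lies wholly before the start. The other members with the letters were Psmc1, Psmd4, Psmd6, Psmd12, Psmd13 and Psme4, and their averaged changes ran from -0.05 (Psmd13) to 0.12 (Psmd12), none past the threshold. These sets were picked after the values were seen, and a match of letters is not evidence of binding.

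Of the other motifs, that of nuclear respiratory factor 1 was in windows of 6 genes, 21.4% of member windows against 4.60% of all. TGACNNNGC, the core of the antioxidant response element bound by Nfe2l1 and Nfe2l2, was in 5 (Psmb5, Psmb6, Psmc6, Psmd12 and Psme4), 17.9% against 12.4%. CCACCC, a short form of the CACCC box bound by Krüppel-like factors, was in 6, 21.4% against 31.5%, and CCAAT in 10, 35.7% against 37.4%. The palindromic glucocorticoid response element, the FOXO site GTAAACA and the cAMP response element TGACGTCA were in none of these windows, and in 0.475%, 3.65% and 1.79% of all. Member windows were richer in G and C, with a median of 57.8% against 52.7%, which bears on the count of any motif of those letters.

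**Figure D5:**
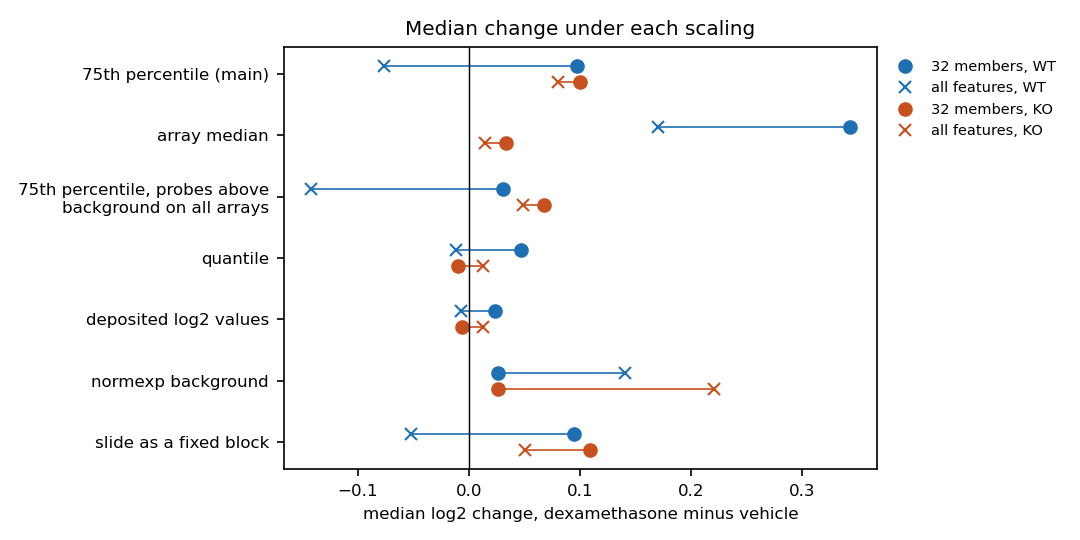
Median log2 change with dexamethasone of the 32 members (dots) and of all tested features (crosses) in WT and KO, under each scaling, background setting and with slide as a fixed block. The members' WT median runs from 0.02 with the deposited log2 values to 0.34 with median scaling, and the median of all features moves with the setting too; with normexp the members lie below it in both genotypes.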

How the data were processed

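The 16 arrays (4 animals in each of 4 groups, 1 array each; groups and replicate numbers from the titles) are Agilent 4x44K 1-colour arrays of amplified, Cy3-labelled cDNA, per the labels' protocols. The deposited files give linear intensity per spot, from Feature Extraction 10.7.3.1 per the file headers. A deposited table of the series holds log2 values (column medians 6.85 to 6.87) and was an alternative; how it was centred or otherwise made is not stated, and a 1-dye table has no ratio to turn.

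From the processed signal, log2 values were scaled by subtracting the 75th percentile of the array's non-control spots. Control and outlier spots were left out, spots of 1 probe averaged, probes kept if well above background on 4 or more of the 16 arrays, and the brightest probe used per gene. Accessions were matched without versions to RefSeq (GRCm38.p6), which named 24844 of 41174 probes. In R 4.3.3, limma 3.58.1 fitted 4 group means to all 16 arrays, with Benjamini-Hochberg adjustment over 25189 features, a threshold of 0.05 and two-sided tests; code was tested on simulated data. The average of both genotypes is the mean of their 2 changes. Confidence intervals are 95%. Alternatives were other scalings and filters, normexp background correction (on the median signals, since those columns were at hand), slide as a block, a replicate block and leaving out arrays.

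The members and all lists were chosen with earlier results of these data known; the promoter motifs were chosen during the analysis. Values in every sample are given for members past the threshold and for the 6 of smallest averaged p; of other lists, up to 4 members past the threshold were eligible, and Klf15, Fkbp5, Psmb8, Psmb9, Psmb10, Trim63, Fbxo32, Foxo1, Nfe2l1 and Pomp were given whatever they did. Paaf1, Ddi2, Fbxo40, Cd68 and Hbb-b1 had no matched probe. The list of ubiquitin and activating enzyme genes is not reported here. Nothing in the labels says more of how animals were kept apart, so p-values measure the spread between these samples.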

Additional observations from a re-analysis of the deposited data

Results flagged for a closer look

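In groups of 4 arrays, 136 values (32 members in 4 groups, and the core and cap medians) were searched for an array far from the rest by Dixon's ratio, the gap to the nearest array over the whole range. A total of 8 exceeded the 95% critical value, and chance flags about 1 in 20 groups. Psma6 was low on WT dexamethasone replicate 4, at 4.95 against 5.21 to 5.25 (ratio 0.87). Psma7, another alpha subunit, was low on KO vehicle replicate 1, at 4.65 against 4.91 to 4.95 (0.858). Psmb2 was high on WT vehicle replicate 3, at 2.16 against 1.92 to 1.95 (0.884), and without that array its averaged change was 0.29. Psmb6, the caspase-like subunit, was high on KO dexamethasone replicate 2, at 5.86 against 5.44 to 5.46 (0.941). Psmd2, a cap scaffold, was low on KO dexamethasone replicate 1, at 4.98 against 5.20 to 5.22 (0.9). Psmd3, a lid subunit, was low on WT vehicle replicate 1, at 5.68 against 5.86 to 5.89 (0.885), and on KO dexamethasone replicate 4, at 5.64 against 5.83 to 5.86 (0.856). The core median in WT dexamethasone had a ratio of 0.866, with replicate 3 at 0.16 against 0.04 to 0.06. Of the 7 arrays named for single genes, 3 (WT vehicle replicate 3, KO vehicle replicate 1 and KO dexamethasone replicate 2) shared slide 7. The arrays low for Psmd3, WT vehicle replicate 1 and KO dexamethasone replicate 4, shared slide 6. KO dexamethasone replicate 1 (Psmd2) and WT dexamethasone replicate 3 (the core median) were the 2 arrays high in neutrophil markers. WT dexamethasone replicate 3 was also the 1 array scanned on a different day from all others, and was alone on its slide. Its 75th percentile of intensity was the lowest, at 554 against 737 to 1169 elsewhere. On this array scan day and neutrophil markers cannot be told apart.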

How the results depend on the processing

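No member was called by dexamethasone in WT, by genotype or by the interaction under any setting run, apart from 1 of 3 Psme4 probes in WT when every probe was fitted. The averaged count of 2 was 0 with median scaling, quantile normalization, normexp, the deposited log2 values and slide as a fixed block. It was 1 with the percentile taken over probes detected on all arrays and with no filter on dim probes. With slide as a random block (consensus correlation 0.574) it was 6, and it was 1 to 4 when 1 array was left out. The number of all features called in the averaged comparison moved as well. Of 25189, 2278 were higher and 2060 lower in the main fit, against 572 and 389 with normexp. They were 1582 and 1468 with slide as a fixed block, and 3197 and 2936 with slide as a random block. Median scaling gave 2030 and 1063, quantile normalization 2076 and 1948, and the deposited values 2067 and 1919. The KO count of 0 was 1 (Psmd11) with the filter on all arrays and with the replicate block, and 3 with slide as a random block. It was 0 to 1 when 1 array was left out, with Psmd11 called without WT dexamethasone replicate 1 or 4. With slide as a random block 2765 features were called higher in KO and 2315 lower, against 1433 and 1146 in the main fit. With the replicate block the averaged count was 3; replicate numbers did not pair the arrays (same-number correlations of deviations -0.66 to 0.66, median -0.04), whereas arrays of 1 slide correlated at 0.19 to 0.79.

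Medians of core and cap, in that order, moved as follows with the scaling. Median scaling gave 0.34 and 0.36 in WT, 0.20 and 0.21 averaged, 0.0637 and 0.0323 for KO minus WT under vehicle, -0.25 and -0.32 under dexamethasone and -0.31 and -0.35 for the interaction, while shifting the median of all features in WT from -0.08 to 0.17. Quantile normalization gave 0.0100 and -0.0357 in KO, 0.0300 and 0.0161 averaged and 0.0449 and 0.0065 for KO minus WT under vehicle. Normexp gave 0.0202 and 0.0321 in WT, 0.0287 for the core in KO and 0.0315 averaged, 0.12 and 0.0817 for KO minus WT under vehicle and 0.0804 and 0.0647 under dexamethasone, with all features at 0.14 in WT and 0.22 in KO. The deposited log2 values gave 0.0122 and 0.0338 in WT, -0.0054 and -0.0054 in KO, -0.0066 for the core averaged and 0.0288 for the core under vehicle. Without the arrays apart on the first component the core in WT was 0.18 and the interaction -0.0872 and -0.12. Leaving out 1 array, core and cap ran over 0.07 to 0.16 and 0.08 to 0.18 in WT, 0.07 to 0.14 and 0.06 to 0.10 in KO, 0.09 to 0.13 and 0.08 to 0.17 averaged, -0.09 to 0.01 and -0.12 to -0.03 for KO minus WT under vehicle, -0.09 to -0.02 and -0.13 to -0.08 under dexamethasone, and -0.04 to 0.04 and -0.09 to 0.01 for the interaction. Psmc6 averaged reversed to -0.0058 with the deposited values. The cause of these differences was not tested. All 43 member probes were well above background on all 16 arrays, and the median half-width of a member's 95% interval within 1 genotype was 0.22, before adjustment.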
